A study of Mus musculus with 10 samples.

Results

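The complement genes described here were C1qa, C1qb and C1qc, which encode the 3 chains of C1q, the central components C3, C4a and C4b, the anaphylatoxin receptors C3ar1 and C5ar1, and Serping1, the C1 inhibitor. They were chosen by gene symbol, through the Ensembl identifier of each row, and made up 9 of the 56884 genes in the count table. RNA was sequenced in bulk from the hippocampus of 10 female P301S mice, the PS19 line, in which the mouse prion promoter drives human 1N4R Tau carrying the P301S mutation, with 1 library per mouse. The ovaries were left in place, and littermates were randomized from 6 months of age to a 10 mm subcutaneous implant of dihydrotestosterone (DHT, 5 mice) or to an empty implant (void, 5 mice). Treatment lasted 12 weeks, during which the implants were replaced at intervals. All 10 mice therefore carried the Tau transgene, and tissue was taken at 9 to 9.5 months. The comparison asks which complement transcripts differed in these females after DHT.

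Complement is a cascade of plasma proteins and receptors that marks microbes, dying cells and debris for uptake. In the classical pathway, C1q binds its target and activates the proteases C1r and C1s, which cleave C4 and C2, and the resulting convertase cleaves C3. Fragments of C3 and C4 stay on the target as tags, the small fragments C3a and C5a signal through C3ar1 and C5ar1, and the C1 inhibitor stops C1r and C1s. In brain, C1q comes mainly from microglia and C4 is made by astrocytes and oligodendrocytes among other cells, and C1q and C3 are known to tag synapses that microglia remove.

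Total counts per mouse ranged from 27188854 to 47113661 with void (median 32844884) and from 33523527 to 45947784 with DHT (median 36379142). Of all genes, 17622 passed the expression filter and were tested, including all 9 complement genes, and the median log2 fold change over the genes tested was 0.0094. Hippocampal neuron markers were abundant, with a summed level of 9343 to 10685 CPM (counts scaled to a common library size, so that levels are comparable between mice) across void mice and 8469 to 10474 across DHT mice. The numbers after S in the library titles, read here as library positions, were all lower for void than for DHT mice. What these numbers record is not stated. Any effect of that order cannot be told apart from the treatment. The summed level of choroid plexus markers did not overlap between the groups, at 121 to 1915 CPM with void and 2233 to 3171 CPM with DHT. Taken singly, the markers Ttr and Prlr did overlap. In bulk tissue, a change in the number of cells of a type and a change in RNA per cell cannot be told apart.

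C4a and C4b are neighbouring copies on chromosome 17, and how far reads can tell them apart bears on both of their values. In the GENCODE M21 reference (GRCm38), C4b spans chr17:34728380-34743882 and C4a spans chr17:34809092-34823464, both on the minus strand. C4a, historically called sex-limited protein, is listed there as a processed transcript, whereas C4b is protein coding. The C4b coding sequence (5214 bases) was aligned to the longest C4a transcript (5371 bases). Of 5204 aligned bases, 5003 were identical (96.1%), and the longest identical run was 433 bases. Of all 100-base stretches of their transcripts, 13.1% of those of C4a and 15.2% of those of C4b occurred in both genes, while none of those of the other members occurred in another gene. Where a read fell in such a shared stretch, the counts do not show which copy it came from. The handling of reads that match several genes is not given in the sources used here. The libraries were read as pairs of 100 bases, while these shares are of single stretches, and the share of pairs was not computed. The following 60 bases of exon 21 show the kind of stretch in which the copies can be told apart, with the 13 differing bases in capitals, from chr17:34816086-34816145 for C4a and chr17:34735430-34735489 for C4b (GRCm38, minus strand).
C4a: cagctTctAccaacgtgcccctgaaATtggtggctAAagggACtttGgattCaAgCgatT
C4b: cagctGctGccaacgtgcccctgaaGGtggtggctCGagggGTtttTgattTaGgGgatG

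The 3 C1q genes lie next to each other on chromosome 4, at chr4:136895917-136898803 (C1qa), chr4:136889804-136893065 (C1qc) and chr4:136880129-136886187 (C1qb), all on the minus strand of GRCm38. Promoter sequence from RefSeq (GRCm38.p6) was found for 5 of the 9 members, and the 250 bases before the start are shown for C1qb, as a C1q chain, and for C3. They are at chr4:136886201-136886450 and chr17:57228137-57228386, both on the minus strand. The window of C1qc, chr4:136892915-136893164, is not shown because GENCODE places the start of that gene further upstream than RefSeq, so that part of the window lies in its first exon. Capitals mark matches, on either strand, to any of 6 short motifs searched.
C1qb: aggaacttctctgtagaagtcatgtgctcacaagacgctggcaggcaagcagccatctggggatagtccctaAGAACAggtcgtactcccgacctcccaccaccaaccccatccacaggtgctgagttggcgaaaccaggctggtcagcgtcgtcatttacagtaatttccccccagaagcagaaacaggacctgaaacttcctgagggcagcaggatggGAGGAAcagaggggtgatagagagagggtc
C3: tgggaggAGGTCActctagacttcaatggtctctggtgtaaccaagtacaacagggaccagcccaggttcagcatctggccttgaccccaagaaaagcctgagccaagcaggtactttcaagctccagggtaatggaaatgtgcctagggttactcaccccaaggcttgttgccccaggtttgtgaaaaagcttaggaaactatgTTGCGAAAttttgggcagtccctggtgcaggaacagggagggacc

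The motifs searched were GAGGAA (the core bound by PU.1, a myeloid factor), TTGCGNAA (C/EBP), TTCNNNGAA (STAT), AGGTCA (a nuclear receptor half-site), DR1 (AGGTCA in direct repeat with any 1 base between, which contains that half-site) and AGAACA (an androgen receptor half-site). C1qb held AGAACA and GAGGAA, C1qc held both of these and AGGTCA, and C3 held AGGTCA and the C/EBP motif as TTGCGAAA. None of the 6 motifs occurred in the windows of C3ar1 and C5ar1. Most of the C5ar1 window (chr7:16259339-16259588) lies inside that gene as GENCODE places it (chr7:16246743-16259540). Its lack of matches therefore does not describe the bases before the GENCODE start. Among 32851 mouse promoters of the same length, GAGGAA occurred in 23.3%, AGAACA in 16.1%, AGGTCA in 14.0%, TTCNNNGAA in 7.02%, TTGCGNAA in 0.670% and DR1 in 0.0335%. The matches describe the letters in these windows and are not evidence of binding.

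DHT-treated females had higher levels of C1qa, C1qb, C1qc, C3, C4b and C3ar1, with fold changes from 2.18 to 3.02. Thus 6 of the 9 genes were higher and 0 were lower at an adjusted p under 0.05 (edgeR's quasi-likelihood test, Benjamini-Hochberg adjustment over all genes tested), where 5.22% of all genes tested were higher and 0.261% were lower. The same 6 genes also passed a log2 fold change of 1, which 2.17% of all genes did, while 0.0227% were lower past that limit. All 9 genes had a positive log2 fold change, with a median of 1.16, where 52.4% of all genes tested were positive. The 9 genes were chosen with earlier results of these data known. The shares over all genes are therefore context and not a test of the set. In the same 6 genes, each DHT mouse was above each void mouse, as for 5.39% of all genes. C4a, C5ar1 and Serping1 did not pass the test, and their groups overlapped. At an unadjusted p under 0.05, C5ar1 was the only further gene that was higher (7 in all, against 13.1% of all genes tested), and 0 were lower. DESeq2 and limma voom also called 6 higher and 0 lower.

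**Figure D1:**
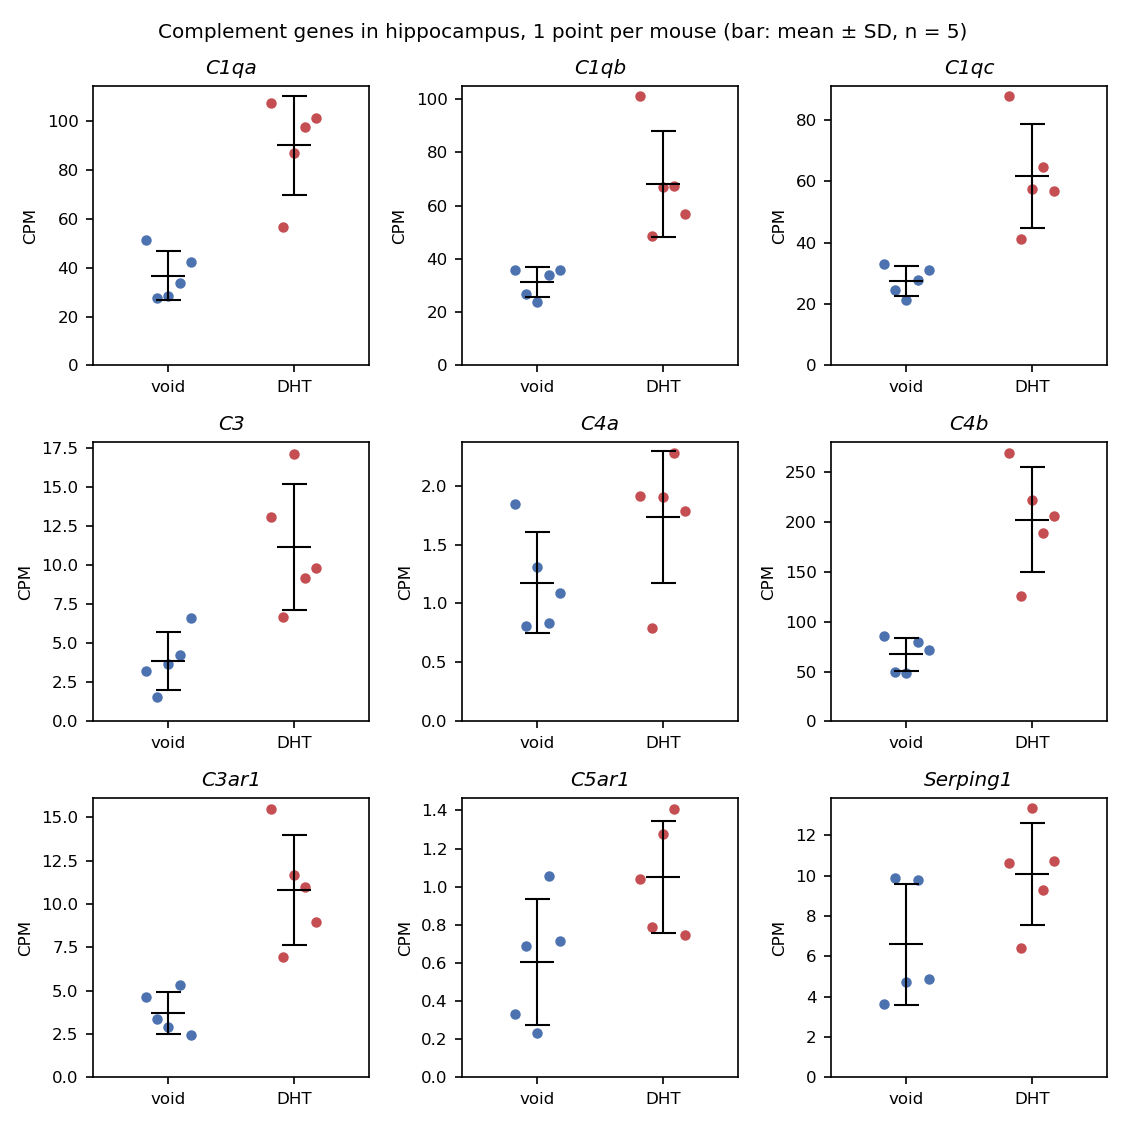
Level of each complement gene in CPM (linear axis from 0, its own scale for each gene), with 1 point per mouse, void on the left and DHT on the right, and the mean ± SD (n = 5) as bars. The groups were apart for C1qa, C1qb, C1qc, C3, C4b and C3ar1 and overlapped for C4a, C5ar1 and Serping1.

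C1q recognizes the target and opens the classical pathway, and its A, B and C chains assemble into 1 molecule. C1qa (ENSMUSG00000036887) was at 51.5, 27.7, 28.4, 33.6 and 42.6 CPM in void replicates 10, 11, 4, 5 and 9, and at 108, 56.6, 87.1, 97.6 and 102 CPM in DHT replicates 1, 2, 3, 5 and 6. DHT replicate 2 was the lowest of its group and lay just above void replicate 10, the highest of the void mice. The means were 36.8 ± 10.2 and 90.1 ± 20.2 CPM (SD, n = 5 each), and the log2 fold change was 1.30 (SE 0.20, adjusted p = 0.00761).

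C1qb was at 35.7, 26.96, 23.7, 34.1 and 35.9 CPM in the void mice and at 101, 48.6, 66.9, 67.5 and 56.9 CPM in the DHT mice, in the same order. DHT replicate 1 was the highest mouse and DHT replicate 2 again the lowest of its group, and the groups were apart. The log2 fold change of C1qb was 1.13 (SE 0.18, adjusted p = 0.00815).

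C1qc was at 33.02, 24.7, 21.2, 27.7 and 31.2 CPM with void and at 87.7, 41.3, 57.5, 64.6 and 56.8 CPM with DHT. The order of the mice was close to that of C1qb. C1qc had a log2 fold change of 1.16 (SE 0.18, adjusted p = 0.00761).

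The proportions of the 3 chains in their summed counts stayed close between groups. C1qa made up 38.1 ± 3.25% with void and 41.2 ± 4.11% with DHT, C1qb 32.9 ± 2.24% and 30.9 ± 3.09%, and C1qc 28.99 ± 1.32% and 27.9 ± 1.19% (SD, n = 5 each). Each of these differences was smaller than the larger SD of its groups, and the groups overlapped. The highest C1qa share, 47.2%, was in DHT replicate 6, the mouse with the lowest C1qb share, 26.4%.

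C4b, the C4 copy that encodes mouse complement C4, had the smallest p of the 9 genes. Void mice were at 85.6, 49.8, 48.9, 79.4 and 72.1 CPM and DHT mice at 269, 126, 222, 189 and 206 CPM. Every DHT mouse was well above the void range, DHT replicate 2 least. The means were 67.2 ± 16.9 and 202 ± 52.2 CPM (SD, n = 5 each). On the log2 scale the change was 1.59 (SE 0.21, adjusted p = 0.00670), which ranked 8 by p among all genes tested.

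C4a was far below C4b in every mouse, at 1.84, 0.809, 1.31, 0.831 and 1.09 CPM with void and 1.91, 0.790, 1.91, 2.27 and 1.79 CPM with DHT. The lowest mouse of all was DHT replicate 2, so the groups overlapped. The means were 1.18 ± 0.426 and 1.73 ± 0.559 CPM (SD, n = 5 each), and the log2 fold change of 0.56 (SE 0.29, adjusted p = 0.371) was not resolved from the spread between mice. C4a took 1.77 ± 0.606% of the summed C4a and C4b counts with void (range 1.04 to 2.61%) and 0.846 ± 0.217% with DHT (0.623 to 1.19%). With 1688 to 10696 C4 counts per mouse, the widest 95% interval of this share was 2.04 to 3.33% in void replicate 4 (Wilson, counting error only). These shares include any reads of the shared stretches, so a part of the C4a counts may belong to C4b. With the counts of both copies summed, the log2 fold change was 1.58 (adjusted p = 0.00670).

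C3, whose cleavage is the step at which all activation pathways meet, was at 3.21, 1.59, 3.70, 4.25 and 6.64 CPM with void and at 13.1, 6.66, 17.1, 9.19 and 9.83 CPM with DHT. The groups were apart by little, since void replicate 9 and DHT replicate 2 nearly met. The means were 3.88 ± 1.84 and 11.2 ± 4.04 CPM (SD, n = 5 each), and the log2 fold change was 1.53 (SE 0.33, adjusted p = 0.0205). C3 no longer passed the threshold without void replicate 10 (adjusted p = 0.0579), void replicate 4 (0.0581), DHT replicate 1 (0.0585) or DHT replicate 3 (0.0515), although its log2 fold change stayed between 1.30 and 1.81.

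C3ar1, the receptor for C3a, was at 4.65, 3.36, 2.92, 5.30 and 2.42 CPM in the void mice and at 15.5, 6.96, 11.7, 10.98 and 8.99 CPM in the DHT mice. All DHT mice were above the void range. The means were 3.73 ± 1.21 and 10.8 ± 3.19 CPM (SD, n = 5 each), and the log2 fold change was 1.54 (SE 0.25, adjusted p = 0.00761).

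C5ar1, the receptor for C5a, was the gene with the fewest counts, 9 to 33 per void mouse and 25 to 61 per DHT mouse. Its levels were 0.332, 0.689, 0.233, 1.05 and 0.713 CPM with void and 1.04, 0.790, 1.28, 1.41 and 0.744 CPM with DHT. Void replicate 5 lay within the DHT range. Its log2 fold change of 0.82 (SE 0.36) did not pass the test (adjusted p = 0.260), and a change of this size was not resolved from the spread between mice.

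Serping1, which encodes the inhibitor that inactivates C1r and C1s, was at 3.65, 9.89, 4.74, 9.81 and 4.87 CPM with void and at 10.6, 6.44, 13.4, 9.31 and 10.7 CPM with DHT. Void mice fell into a low set of 3 and a high pair, replicates 11 and 5, that lay within the DHT range. Its log2 fold change was 0.62 (SE 0.28, adjusted p = 0.289). Void replicates 11 and 5 also had the highest meningeal fibroblast scores of the void mice (mean log2 CPM of 10 markers), 3.38 and 3.10, against 1.999 to 2.42 in the other void mice and 2.67 to 3.36 in the DHT mice. Their border-associated macrophage scores, 0.159 and 0.717, were also the highest of the void mice, against -1.40 to -0.294 in the others. The same held for their endothelium scores, 4.77 and 4.98, against 4.37 to 4.61. They had the lowest choroid plexus scores, 1.85 and 2.03. With the choroid plexus, the fibroblast or the border-associated macrophage score as a covariate, Serping1 was higher at an unadjusted p under 0.05 (edgeR). So were 924, 2493 and 2542 of all genes in these fits. Serping1 was not called in any of them, with a lowest adjusted p over the covariate fits of 0.152. How much of its level any of these scores accounts for was not tested.

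Per kilobase of exon (GENCODE M21), C1qa and C1qb had the highest levels in both groups. With void, the order was C1qa (35.4 ± 9.78 CPM per kilobase), C1qb (28.7 ± 5.15), C1qc (14.3 ± 2.49), C4b (11.8 ± 2.98), Serping1 (2.83 ± 1.29), C3ar1 (0.866 ± 0.281), C3 (0.754 ± 0.357), C5ar1 (0.235 ± 0.128) and C4a (0.190 ± 0.0687). The means of the pairs C1qa and C1qb, C1qc and C4b, C3ar1 and C3, and C5ar1 and C4a differed by less than the larger SD of the pair. That SD is between mice, while both genes of a pair were measured in the same mice. Their order within mice was not tested. With DHT, the mean of C4b (35.6 ± 9.16 CPM per kilobase) stood before that of C1qc (31.9 ± 8.75), again by less than the larger SD between mice. The rest of the order was as with void. The levels of C1qa, C1qb and Serping1 with DHT were 86.6 ± 19.4, 62.7 ± 18.4 and 4.34 ± 1.08 CPM per kilobase. Those of C3ar1, C3, C5ar1 and C4a were 2.51 ± 0.740, 2.17 ± 0.786, 0.409 ± 0.114 and 0.279 ± 0.0900 (SD, n = 5 in each group).

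Whether members changed by a different amount from C1qa was tested with the log2 ratio to C1qa in each mouse. The ratio of C4b to C1qa was higher with DHT by 0.29 (two-sided exact permutation test over 5 against 5 mice, p = 0.0556, adjusted p = 0.278 over 5 ratios). The differences were 0.28 for C3 (exact p = 0.444), 0.23 for C3ar1 (exact p = 0.452), -0.43 for C5ar1 (exact p = 0.349) and -0.61 for Serping1 (exact p = 0.222), each with an adjusted p of 0.452. None of the 5 passed the test and the groups overlapped in each, so the ratios to C1qa were not resolved from the spread between mice. Against C1qb in place of C1qa, the C4b ratio was higher by 0.49 with an adjusted p of 0.0397 from the same exact test. The smallest p that 5 mice against 5 allow is 0.00794.

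Since microglia are a main source of C1q and of C3ar1, the members were also set against 12 genes of homeostatic microglia in the same mouse. Of these, 4 rose with DHT, 10 were higher at an unadjusted p under 0.05, all 12 had a positive log2 fold change, and their summed level was 499 to 571 CPM with void and 682 to 953 CPM with DHT. Their mean log2 CPM was 4.98 ± 0.0713 in void mice and 5.40 ± 0.177 in DHT mice (SD, n = 5 per group). As a description, with this mean subtracted in each mouse, the difference between DHT and void was 0.88 for C1qa, 0.68 for C1qb, 0.71 for C1qc, 1.16 for C3, 1.17 for C4b and 1.11 for C3ar1, on the log2 scale. It was 0.10 for C4a, 0.45 for C5ar1 and 0.27 for Serping1. C1qb, C1qc, C4b and C3ar1 kept groups that were apart, and C1qa and C3 then overlapped. The share of all genes tested with groups apart on this scale was not computed, so these values describe the members only.

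**Figure D2:**
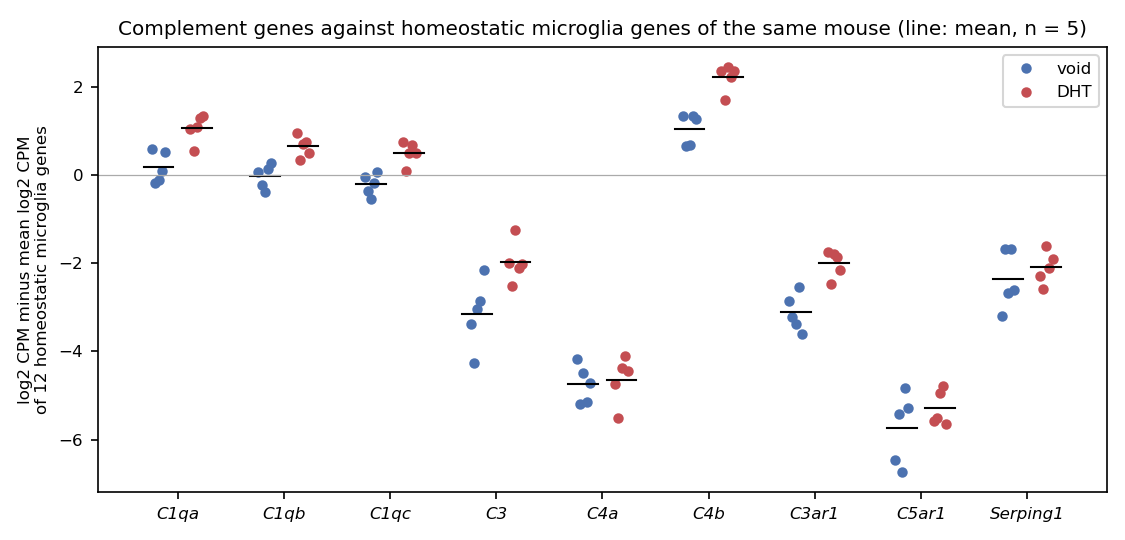
Log2 CPM of each complement gene minus the mean log2 CPM of 12 homeostatic microglia genes in the same mouse, with 1 point per mouse (void left and blue, DHT right and red) and a line at each mean (n = 5). The groups were apart for C1qb, C1qc, C4b and C3ar1, and C4a, C5ar1 and Serping1 differed by 0.10 to 0.45.

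Among markers of other cells, those of choroid plexus epithelium differed most between the groups. Choroid plexus epithelium rose in 5 of 12 markers (median log2 fold change 2.15), and all 12 were higher at an unadjusted p under 0.05. Of 10 astrocyte markers only Gfap, a filament protein of reactive astrocytes, passed the test (log2 fold change 1.18, adjusted p = 0.00761), and 4 were higher at an unadjusted p under 0.05. Border-associated macrophages had 0 of 6 tested markers called (1 higher at an unadjusted p under 0.05) and a summed level of 2.48 to 15.8 CPM with void and 5.63 to 12.99 CPM with DHT. Of 10 meningeal fibroblast markers, 1 was called (Igf2), with a summed level of 85.0 to 156 CPM with void and 95.7 to 164 CPM with DHT. Oligodendrocyte (9 tested), endothelial (8), neuron (12), neutrophil and monocyte (2) and red blood cell (1) markers had 0 called, and at an unadjusted p under 0.05 only 4 oligodendrocyte markers were higher and 0 markers of these lists lower. No marker in these lists was at 0 counts in all mice.

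When the choroid plexus score was a covariate, 0 of the 9 genes and 0 genes in all were called, and the log2 fold changes were 1.04 for C1qa, 0.97 for C1qb, 1.002 for C1qc, 1.51 for C4b and 2.03 for C3ar1. C3 moved most among the 6 genes, to 0.73 (adjusted p = 0.870), while C5ar1 and Serping1 moved up to 1.41 and 1.47. At an unadjusted p under 0.05, 7 of the 9 genes were higher in this fit, all but C3 and C4a, where 924 of all genes tested were higher and 235 lower. With the homeostatic microglia score as a covariate, again 0 of the 9 genes and 0 genes in all were called, and the log2 fold changes were 0.76 for C1qa, 0.31 for C1qb, 0.39 for C1qc, 1.38 for C3, 0.87 for C4b and 0.58 for C3ar1. Of the 9 genes, C4b alone was higher at an unadjusted p under 0.05 in this second fit, where 385 of all genes were higher and 120 lower. Both scores were apart between the groups, so what they carry cannot be told apart from the treatment.

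**Figure D3:**
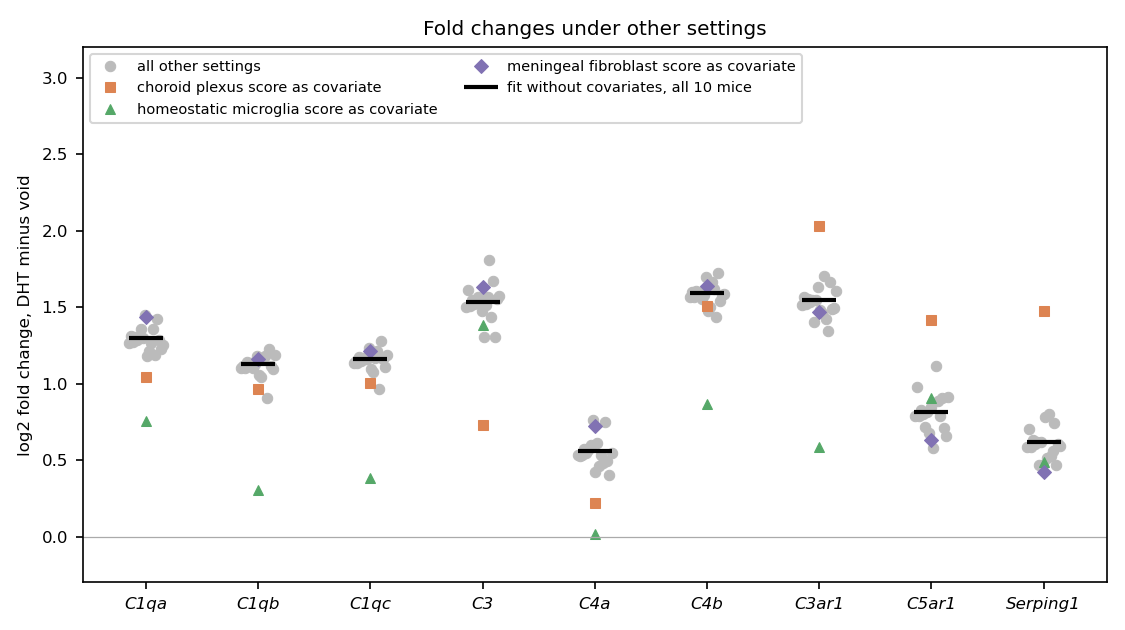
Log2 fold change (DHT minus void) of each complement gene, with all 10 mice and no covariate as a black line. Grey points are other count models, normalizations and filters, summed C4 copies, single mice left out and a border-associated macrophage score as a covariate. Other markers show a choroid plexus (square), homeostatic microglia (triangle) or meningeal fibroblast (diamond) score as a covariate. All values were above 0, and the microglia and choroid plexus covariates gave the values farthest from the line, such as 0.31 for C1qb and 0.73 for C3.

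Among the other complement genes, 7 were higher with DHT and 0 were lower, where 5.22% of all genes tested were higher and 0.261% lower. DESeq2 called 9 higher and limma voom 7, C1s1 not among the latter, and both called 0 lower. The list held 53 genes in 7 roles, of which 33 passed the expression filter and 4 had no counts at all. It too was chosen with earlier results of these data known, so the shares over all genes are context only. The 7 genes were 2 proteases (C1ra and C1s1), 2 receptor subunits (Itgax and Itgb2), the soluble regulator Clu and the membrane regulators Cd55 and Cd59a, and 26 were not called. The median log2 fold change was 0.03, with 17 of 33 positive, 6 of the 33 had all DHT mice above all void mice (5.39% of all genes tested), and 3 also passed a log2 fold change of 1 (2.17%). At an unadjusted p under 0.05, 9 of the 33 were higher, where 13.1% of all genes tested were, the 7 genes with Itgam and Cpn1. At the same threshold 2 genes were lower, Masp2 (log2 fold change -1.09, adjusted p = 0.246) and Csmd1 (-0.19, adjusted p = 0.178), where 4.22% of all genes tested were. Itgam, Cpn1, Masp2 and Csmd1 were chosen after their values were seen.

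**Figure D4:**
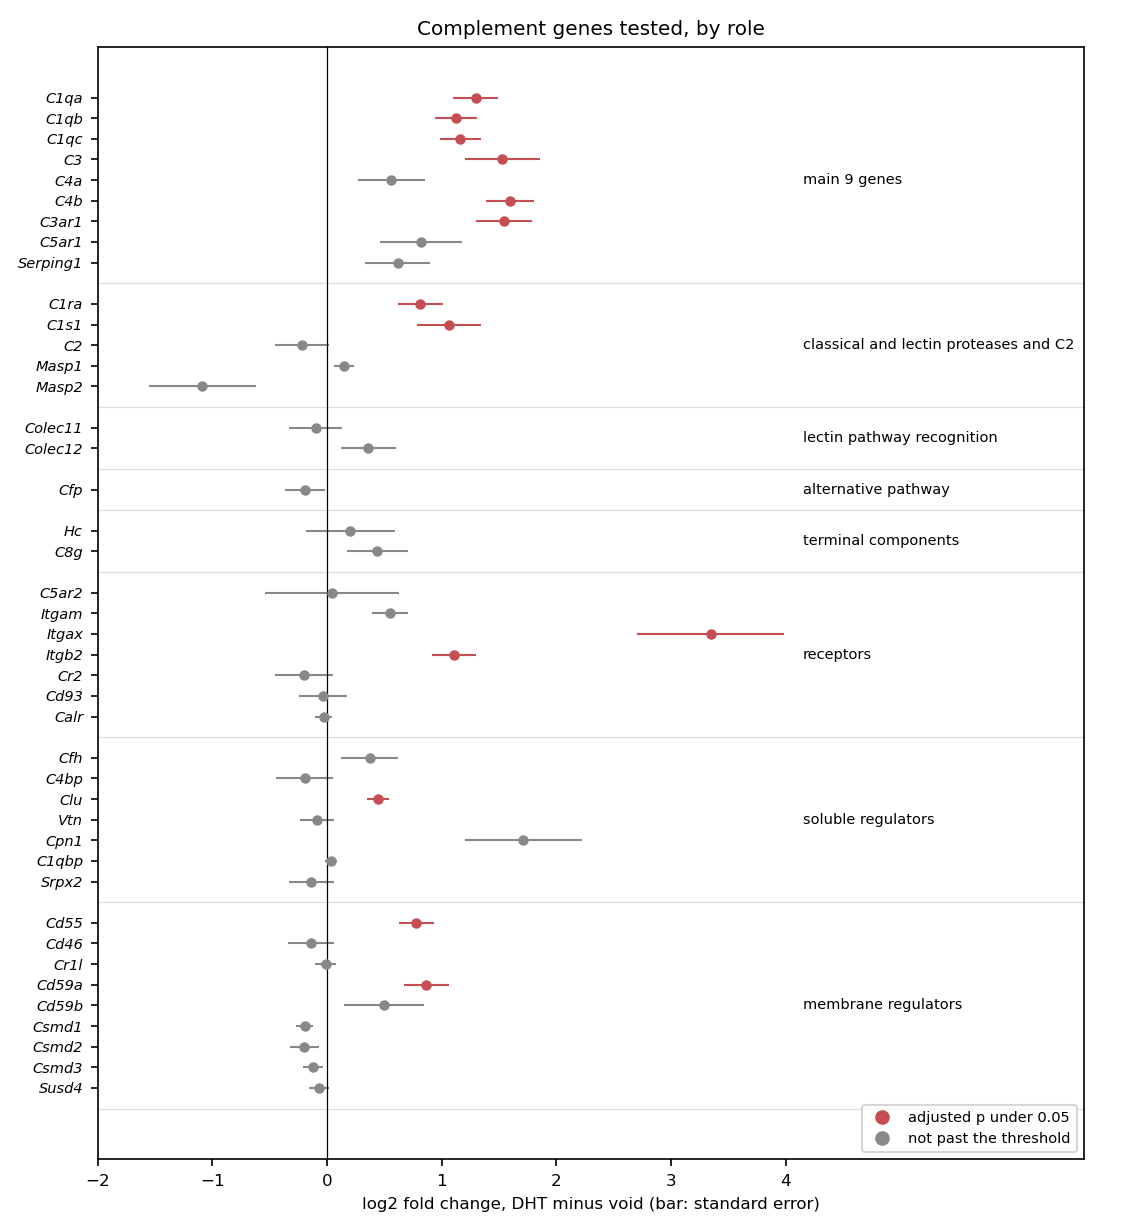
Log2 fold change (DHT minus void) with its standard error for each complement gene tested, grouped by role, with red for an adjusted p under 0.05. Red points lie among the proteases, receptors, soluble and membrane regulators as well as the main 9 genes, and Itgax, at 3.35, is the farthest from 0.

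C1ra and C1s1 encode the proteases that C1q activates. C1ra was at 1.55, 1.41, 1.56, 1.89 and 2.58 CPM with void and 3.42, 2.37, 4.04, 2.87 and 3.07 CPM with DHT, with DHT replicate 2 below void replicate 9. For C1ra the log2 fold change was 0.81 (SE 0.19, adjusted p = 0.0319). C1s1 was at 0.738, 0.719, 1.37, 1.502 and 1.21 CPM with void and 3.17, 1.48, 3.10, 1.71 and 2.20 CPM with DHT, where again DHT replicate 2 overlapped the void range. Its log2 fold change was 1.06 (SE 0.28, adjusted p = 0.0449). Both calls were fragile, since C1ra passed only without void replicate 9 or DHT replicate 2, and C1s1 only without void replicate 5 or DHT replicate 2, when mice were left out in turn. The highest adjusted p in those fits was 0.101 for C1ra (without void replicate 11) and 0.140 for C1s1 (without DHT replicate 1). Masp1, the lectin pathway protease with the highest level in this role, had a log2 fold change of 0.15 (adjusted p = 0.459).

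Among receptors, Itgb2 encodes the beta chain shared by complement receptors 3 and 4, and Itgam and Itgax encode their alpha chains. Itgax was at 2.66, 0.329, 0.275, 2.75 and 0.838 CPM with void and 15.6, 2.84, 17.3, 18.9 and 12.2 CPM with DHT. DHT replicate 2 lay far below the other DHT mice and just above the void mice. The log2 fold change was 3.35 (SE 0.64, adjusted p = 0.0127), on means of 1.37 ± 1.24 and 13.4 ± 6.40 CPM (SD, n = 5 each).

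Itgb2 was at 8.97, 6.47, 5.94, 9.14 and 7.41 CPM with void and 21.1, 9.796, 18.7, 16.6 and 15.2 CPM with DHT. The groups were apart, and the log2 fold change was 1.10 (SE 0.19, adjusted p = 0.00990). Itgam had groups that were apart, at 7.99 to 9.15 CPM with void and 10.1 to 18.4 CPM with DHT, but did not pass the test (log2 fold change 0.55, adjusted p = 0.0658). Calr, a chaperone that also binds C1q at the cell surface, had the highest level of the role and a log2 fold change of -0.03 (adjusted p = 0.912).

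Among regulators, Clu (clusterin, which binds the terminal complex) was at 514 to 671 CPM with void and 699.99 to 919 CPM with DHT, a log2 fold change of 0.45 (SE 0.09, adjusted p = 0.0194). Cd55, which speeds the decay of convertases, was at 6.53 to 9.21 CPM with void and 10.9 to 17.4 CPM with DHT, a log2 fold change of 0.78 (SE 0.15, adjusted p = 0.0133). Cd59a, which blocks the terminal pore, was at 6.97 to 14.9 CPM with void and 18.01 to 27.7 CPM with DHT, a log2 fold change of 0.87 (SE 0.19, adjusted p = 0.0237). All 3 had groups that were apart. Clu lost its call without void replicate 11 (adjusted p = 0.0739), void replicate 4 (0.0501), DHT replicate 1 (0.0717) or DHT replicate 5 (0.0558). Cd59a lost it without void replicate 10 (adjusted p = 0.0522), void replicate 11 (0.0847), DHT replicate 1 (0.0835) or DHT replicate 3 (0.0515), and Cd55 without void replicate 11 (0.0536). When the choroid plexus score was a covariate, the log2 fold change was 0.41 for Clu, 0.40 for Cd55 and 0.17 for Cd59a, and 0 genes in all were called. Over the 4 covariate fits it ranged from 0.24 to 0.47 for Clu, 0.40 to 0.79 for Cd55 and 0.17 to 1.05 for Cd59a. Susd4, the membrane regulator with the highest level, had a log2 fold change of -0.07 (adjusted p = 0.758).

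The lectin, alternative and terminal roles held no called gene. Of 7 lectin recognition genes 2 could be tested, and Colec12, a scavenger receptor of the collectin family, had the higher level of them (log2 fold change 0.36, adjusted p = 0.505). In the alternative pathway, only Cfp (properdin) could be tested (log2 fold change -0.19, adjusted p = 0.666), while Cfd had 0 counts and Cfb 8 counts over all mice. Of 7 terminal components 2 could be tested, of which C8g was the higher in level (log2 fold change 0.44, adjusted p = 0.462), and C9 had 7 counts over all mice. Hippocampal transcripts of these roles were therefore mostly too few for a comparison at this depth.

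Members were also compared with all genes by the likeness of their variation among mice of the same group, measured as the Pearson correlation of deviations from the group mean of log2 CPM over the 10 mice. These values are descriptions. All genes of a library share its depth and tissue composition, and both depth and marker levels differed between mice. The genes most like C1qa were Lag3 (0.96), Cd37 (0.96) and Ptpn18 (0.96). The genes most like C4b were Gfap (0.97), Hcls1 (0.97) and Ccdc28b (0.96). C1qb and C1qc were the most alike of all pairs of members (0.96). Gfap rose with DHT, as above, and Ccdc28b had a log2 fold change of 0.09 (adjusted p = 0.655). The genes most like C3 were Slc43a3 (0.96), Iqcd (0.93) and Cgn (0.93), and those most like Serping1 were Olfml2a (0.99), Crispld2 (0.98) and Slc6a20a (0.97). Of the 3 genes most like Serping1, none passed the test, with adjusted p values from 0.590 to 0.748.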

How the data were processed

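Per the labels and the methods of the study, RNA of 10 hippocampi was made into mRNA libraries. The authors trimmed reads with HTStream, aligned them with STAR 2.7.10b and deposited unnormalized raw counts for each gene. The methods name mm10 and the submitters' processing notes mm39 and GRCm39, so coordinates here are those of the references, not of the deposited counts. The counting annotation, strand setting and treatment of reads that match several genes are not given in the sources used here. Of 56884 identifiers, 51948 had a symbol in GENCODE M21 by identifier without version (35 with the same version), and 17622 passed edgeR's expression filter.

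Counts of 5 void and 5 DHT mice were compared in R 4.3.3 with edgeR 4.0.16 (TMM, quasi-likelihood test, Benjamini-Hochberg adjustment). CPM are TMM-normalized, log2 CPM have a prior count of 2, and SE is the absolute log2 fold change over the square root of F. Ratios were compared with two-sided exact permutation tests (scipy 1.17.1). Each p-value measures the spread between mice. The test code was tested on simulated data, where 5.26% of edgeR calls, 5.88% of voom calls and 19.2% of DESeq2 calls were false. Members and lists were chosen with earlier results of these data known. Of the other complement genes, those called and the tested gene of highest mean CPM in each role were named, and for C1qa, C3, C4b and Serping1 the 3 genes of most like variation with a mean CPM of at least 1. Alternatives were DESeq2 1.42.0, voom in limma 3.58.1, other normalizations, filters, call rules and covariates, summed C4 copies, another prior count or denominator for ratios, and leaving out each mouse. Covariates for border-associated macrophages and meningeal fibroblasts were added after the data were examined.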

Additional observations from a re-analysis of the deposited data

Results flagged for a closer look

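Among 44 sets of 5 mice examined, 2 had a single mouse apart from the rest by Dixon's criterion, whose ratio of gap to range must exceed 0.710 for 5 mice, and chance gives about 2.2. For Cfp, DHT replicate 5 was lowest, at 1.92 CPM against 2.80 CPM in the nearest mouse, a ratio of 0.725. For C8g, DHT replicate 2 was lowest, at 0.345 CPM against 0.670 CPM in the nearest mouse, a ratio of 0.758.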

How the results depend on the processing

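The count of 6 members higher was 6 under DESeq2, voom, other normalizations and filters, the fold limit, summed C4 copies and the added covariates, and 5 to 6 with each mouse left out. It was 0 with the choroid plexus score and 0 with the homeostatic microglia score as a covariate. The 7 other complement genes higher became 0 and 0 with these covariates, 3 with the fold limit, and 2 to 8 with each mouse left out. Other complement genes lower numbered 2 at an unadjusted p under 0.05 and 0 to 1 with each mouse left out. The ratio of C4b to C1qb, in place of C1qa, differed by 0.49. Calr, near 0, reversed with the fibroblast covariate (0.00065) and ranged from -0.086 to 0.014 with each mouse left out. C1s1 also missed the threshold under voom and with DESeq2 size factors in edgeR. Over all genes, where 920 were higher and 46 lower, DESeq2 called 1221 and 224, and the fits with each mouse left out called 351 to 1072 higher and 5 to 77 lower. The added covariates gave 1069 and 1098 higher and 90 and 86 lower. No member or ratio changed direction under the alternatives run, and the cause was not tested. No paired analysis was possible because the labels do not give litters and the void and DHT mice, different animals, have just the number 5 in common.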
